A study of Homo sapiens with 4 samples.

Results

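MYC is a transcription factor that pairs with MAX and binds the DNA motif CACGTG, a form of E-box that is called the E-box here. It is known as a driver of cell growth, and genes for ribosome production are among its best known targets. Ribosomes are made in the nucleolus: RNA polymerase I transcribes the ribosomal RNA (rRNA) precursor, small nucleolar ribonucleoproteins (snoRNPs) modify it, and assembly factors cut, fold and pack it into the small and the large subunit. The genes described here are MYC and 40 of these nucleolar factors, 41 in all, listed by name with earlier results of these data known. A member counted as measured where the array annotation tied at least 1 probe set to it and to no other gene, under its current or a former symbol. That held for 36 of 41 members among 19775 measured genes. NOP56, DKC1, BOP1 and PPAN are annotated only on probe sets that also name other genes, and no probe set was named for GNL3, so these 5 were not analysed here.

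Expression was measured in HepG2, an established human hepatoma line, on 4 Affymetrix GeneChips of the type HG-U133_Plus_2. Knockdown cells were transfected with siRNA-2 or siRNA-1 against LSD1, the histone demethylase encoded by KDM1A (1 array each), and control cells with an siRNA against GL3 (2 arrays). All cells grew in medium with 25 mM glucose and 10% serum, were transfected at about 50% confluence and were harvested after 4 days. The labels do not describe the arrays of a group as separate cultures, so the spread behind every p-value here may hold no variation between cultures. Spread between the control arrays could be technical alone. In the comparison of both knockdown arrays with both controls, the spread also holds any difference between the siRNAs. RNA of a whole culture cannot tell fewer cells with a transcript from less of it per cell.

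Values are on the log2 scale, and the authors centred them per probe set, which leaves differences between arrays and no levels. They are therefore given here relative to the mean of the control arrays: -1 is a level of 0.5 times that mean. KDM1A gave -2.37 with siRNA-2 and -2.75 with siRNA-1, against 0.03 and -0.03 on the control arrays. Over all probe sets the SD was 0.384 with siRNA-2 and 0.197 with siRNA-1, against 0.164 and 0.154 on the controls, so the siRNA-2 array stood apart in spread. Hybridization spike-ins averaged 0.65 with siRNA-2 and 0.61 with siRNA-1, against -0.69 and -0.61 on the controls as deposited. The 5′ minus the 3′ probe set of ACTB, a sign of RNA or labelling quality, is also given as deposited. It was -0.38 with siRNA-2, -0.26 with siRNA-1, and 0.34 and 0.23 on the controls. For GAPDH the shift was smaller: -0.14 with siRNA-2, -0.04 with siRNA-1, and 0.13 and 0.04 on the controls. These shifts run along the split of knockdown and control arrays, and their part in the results was not tested. All 7 measured markers of hepatocytes and hepatoma, SERPINA1 (0.46 with siRNA-2, 0.50 with siRNA-1), APOA1 (0.57, 0.36) and FGB (0.29, 0.45) among them, fell in the brightest of the 3 classes into which probe sets could be sorted (8 or above on the log2 scale). All 7 lay above both controls on both knockdown arrays, against 23.7% of all genes, with medians of 0.57 for siRNA-2 and 0.31 for siRNA-1. Of 8 markers of blood, stromal and endothelial cells, 4 fell in the dimmest (PTPRC, CD3E, COL1A2 and VWF), 2 in the middle (COL1A1, PECAM1) and 2 in the brightest (CD14, DCN). Of these 8, the highest with siRNA-2 were COL1A1 (2.65 with siRNA-2, 1.10 with siRNA-1) and CD14 (1.71, 0.90). The lowest were PECAM1 (-0.78, -0.31) and CD3E (-0.48, 0.05). DCN gave -0.27 and -0.27, and the other 3 lay between -0.03 and 0.25 with siRNA-2. The part of these markers in the results was not tested.

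The E-box is the motif MYC is known to bind, and its matches in the promoters of these genes are shown first. Promoters are the 250 bases before and 50 after an annotated transcript start in RefSeq on GRCh38.p14. They were given for 35 of the 41 members; MYC, NOP58, NOLC1, RRP12, BOP1 and RRS1 are not among them. CACGTG, which reads the same on both strands, was found in 15 of 35 members (42.9%), against 8.77% of all 27305 genes with a promoter in the table. Among measured genes the share was 10.9%, and among those in the brightest class 13.3%. A gene with several starts has more chances to match, and 10 members had several. These matches describe sequence and are not evidence of binding. The stretches below run 5′ to 3′ on the strand of the gene, with the E-box in capitals. The first group holds E-boxes upstream of the start.
NOP10, 11 bases upstream, chr15:34343132-34343157, minus strand: aattgacgaaCACGTGacgcggtcgg
NOP10, 170 bases upstream, chr15:34343291-34343316, minus strand: agggacactcCACGTGttttagcctg
LYAR, 64 bases upstream, chr4:4290070-4290095, minus strand: gcggcgagtcCACGTGctccccgcgg
UTP4, 16 bases upstream, chr16:69132623-69132648, plus strand: agcgcgcgcgCACGTGgggccggggc
DDX21, 31 bases upstream, chr10:68956606-68956631, plus strand: ccgggtgtccCACGTGgtccccggcg
RRP9, 5 bases upstream, chr3:51941894-51941919, minus strand: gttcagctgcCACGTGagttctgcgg
UTP20, 10 bases upstream, chr12:101280085-101280110, plus strand: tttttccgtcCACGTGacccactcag

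In another group the E-box begins inside the transcript, at the position given, counted from 1 at the start. Of the 15 members with the motif, 11 are shown in these groups; GAR1 (position 32), NOP14 (position 16), GNL3 (position 7) and NOP2 are not shown.
WDR43, position 4, chr2:28894660-28894685, plus strand: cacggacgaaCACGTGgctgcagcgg
FBL, position 7, chr19:39846358-39846383, minus strand: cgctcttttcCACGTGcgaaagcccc
PES1, position 14, chr22:30591882-30591907, minus strand: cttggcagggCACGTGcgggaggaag
NOC3L, position 20, chr10:94362905-94362930, minus strand: gggacttcggCACGTGtgtcattccc
BYSL, position 29, chr6:41921517-41921542, plus strand: cttcagtcccCACGTGcgatccttcc
NOP10, a small core protein of pseudouridine-guiding snoRNPs, was the member with the most E-boxes upstream of its start. Its 250 upstream bases, chr15:34343137-34343386 on the minus strand, show how the pair is placed: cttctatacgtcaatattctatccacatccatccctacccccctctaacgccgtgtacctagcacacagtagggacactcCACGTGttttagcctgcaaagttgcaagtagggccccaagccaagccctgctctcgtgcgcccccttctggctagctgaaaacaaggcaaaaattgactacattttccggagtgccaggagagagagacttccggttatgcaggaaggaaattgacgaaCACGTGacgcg.

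With siRNA-2 most of these genes were lower than in control cells, and with siRNA-1 their values lay closer to the controls. The median over the 36 members was -0.45 with siRNA-2 and -0.16 with siRNA-1, whereas the medians over all genes were -0.02 and 0.00. On the siRNA-2 array 31 of 36 members lay below both controls, against 44.6% of all genes, and on the siRNA-1 array 25 of 36 did, against 40% of all genes. On both knockdown arrays 23 members lay below both controls, against 25.4% of all genes, and 1 member, NPM1, lay above both, against 23.7%. Most members (33 of 36) were in the brightest class, and in that class 31.2% of genes lay below both controls on both knockdown arrays, 46.6% with siRNA-2 and 47.3% with siRNA-1. The siRNA-2 value was the lower of the knockdown pair for 31 of 36 members, against 52% of all genes and 47.5% of the brightest class.

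**Figure D1:**
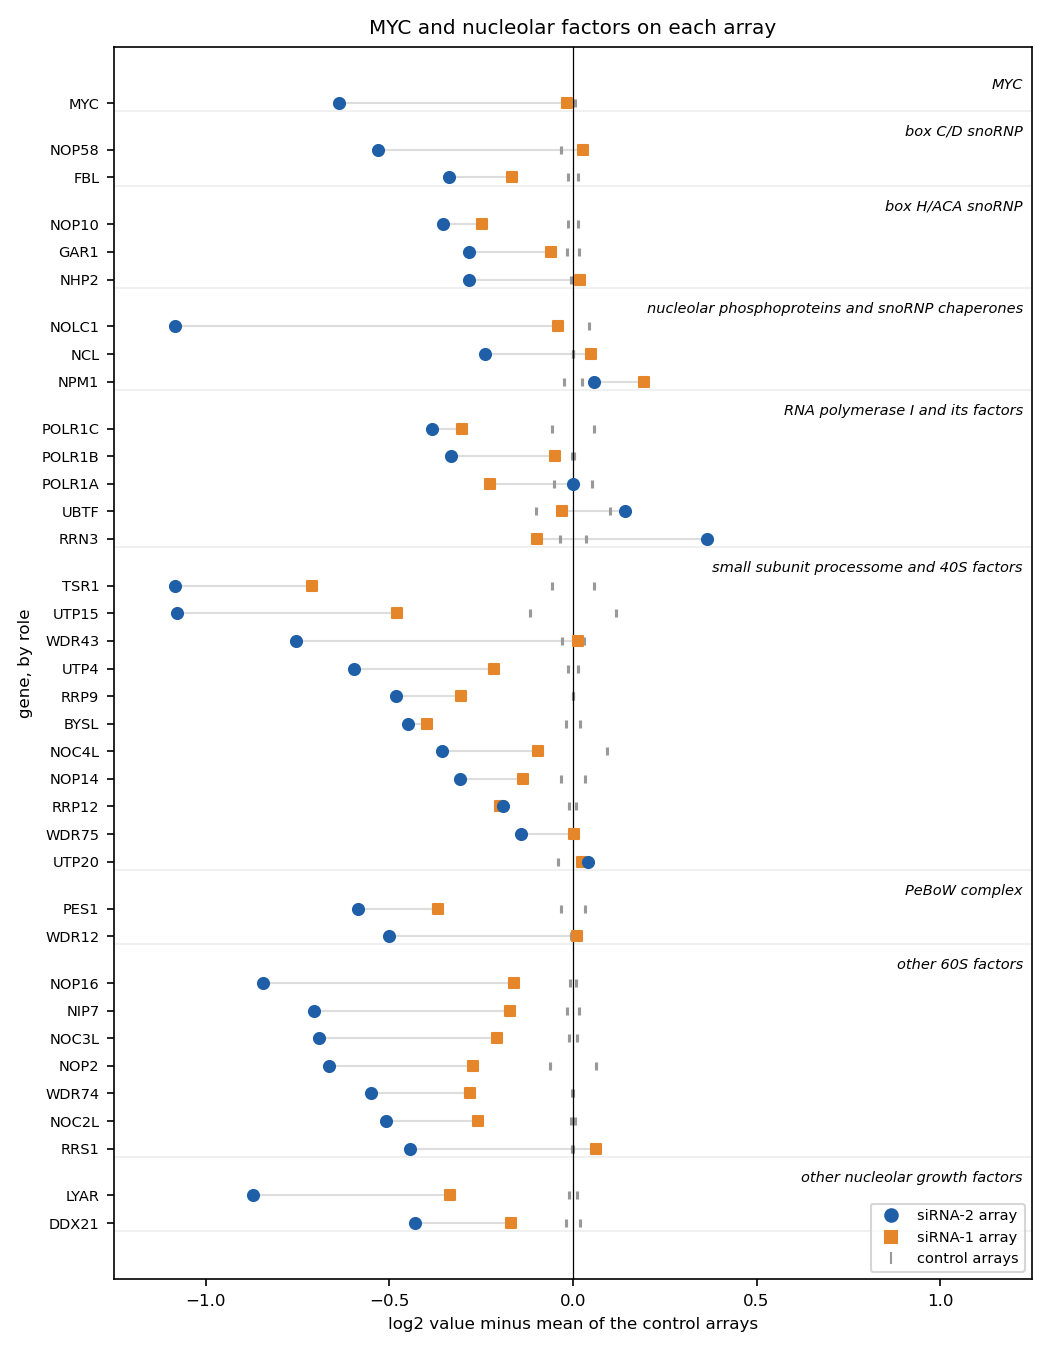
Value of each measured member on the siRNA-2 array (blue circles), the siRNA-1 array (orange squares) and the 2 control arrays (grey ticks), as log2 value minus the mean of the controls, with members grouped by role. Blue circles lie left of the controls for 31 of 36 members and reach -1.08, while orange squares lie between -0.71 and 0.19.

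Tested with limma over all 19775 genes, no member differed between the 2 knockdown and the 2 control arrays (0 of 36, adjusted p from 0.201 to 0.915), and of all genes 0.00506% passed, which is 1 gene. At an unadjusted p under 0.05, 11 members were lower and 0 higher, against 7.15% of all genes and 9.95% of the brightest class lower. The median difference was -0.30, and it was -0.16 without the siRNA-2 array. Each siRNA was also tested alone. That test takes its spread from the 2 control arrays and assumes that a lone knockdown array varies as they do. limma draws the spread of each gene towards a value common to all genes. With siRNA-2, 20 of 36 members fell and 0 rose (adjusted p from 0.0181 to 0.0410 for those that fell), where 10.3% of all genes and 16.7% of those in the brightest class fell and 13.5% of all genes rose. With siRNA-1, 0 members and 0% of all genes passed, so that count does not bear on the members.

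Set by fold alone, 12 of 36 members were over 1.5-fold lower with siRNA-2, against 6.58% of all genes and 10.4% of the brightest class. With siRNA-1 there was 1 such member, TSR1, against 2.13% of all genes, and that value rests on its probe set, as given below. No member was over 1.5-fold higher with either siRNA, against 10.2% of all genes with siRNA-2 and 3.31% with siRNA-1.

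**Figure D2:**
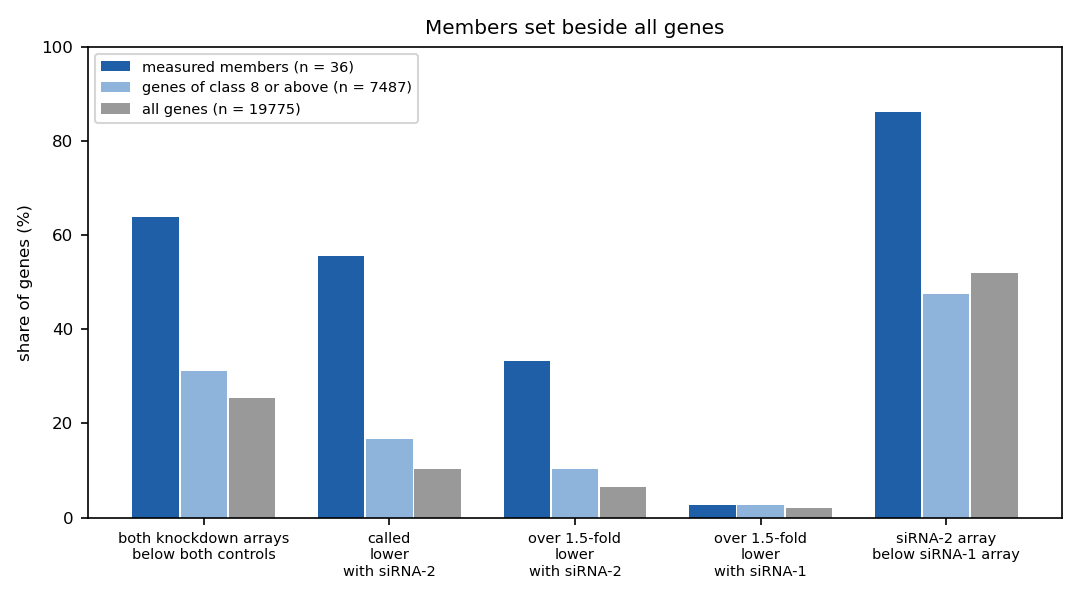
Share of genes, in percent, that met each of 5 descriptions on the horizontal axis, for the 36 measured members (dark blue), the 7487 genes of the brightest class (light blue) and all 19775 genes (grey). The members' bars are the highest in each description of lower values with siRNA-2 or on both arrays, and stand beside the others, near 2.78%, for a 1.5-fold lower value with siRNA-1.

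MYC itself, read by 1 probe set, gave -0.64 with siRNA-2 and -0.02 with siRNA-1, against -0.01 and 0.01 on the control arrays. The siRNA-2 value is a 1.55-fold lower level, and the siRNA-1 value lay within 0.02 of the controls. MYC fell with siRNA-2 (-0.64 ± 0.07, SE, 1 array against 2, limma adjusted p = 0.0247). The difference between the siRNAs was -0.62 ± 0.08 and did not pass (adjusted p = 0.0529), nor did the comparison of both knockdown arrays with both controls (-0.33 ± 0.23, adjusted p = 0.558).

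Of the snoRNP proteins, which guide rRNA modification, all 5 lay below both controls on the siRNA-2 array. The same held for 44.6% of all genes and 46.6% of the brightest class. NOP58, a scaffold of the box C/D snoRNPs that guide ribose methylation, gave -0.53 with siRNA-2 and 0.03 with siRNA-1, against -0.03 and 0.03 on the controls. It fell with siRNA-2 (adjusted p = 0.0334), and its siRNA-1 value lay within the range of the controls. FBL, fibrillarin, the methyltransferase of the same particles, read -0.34 and -0.17 against controls of 0.01 and -0.01 and did not pass (adjusted p = 0.058 with siRNA-2). Of the box H/ACA proteins, which guide pseudouridine formation, NOP10 gave -0.35 with siRNA-2 and -0.25 with siRNA-1, against 0.01 and -0.01. GAR1 gave -0.28 and -0.06 against controls of 0.02 and -0.02, and NHP2 -0.28 and 0.02 against controls within 0.01 of 0. No box H/ACA member passed with siRNA-2 (adjusted p from 0.0541 to 0.0784), although all 3 siRNA-2 values lay below both controls.

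Among abundant nucleolar phosphoproteins the values parted. NOLC1, which binds snoRNPs and escorts them, had one of the lowest siRNA-2 values, close to those of TSR1 and UTP15: -1.08 with siRNA-2 and -0.04 with siRNA-1, against 0.04 and -0.04 on the controls. That is a 2.12-fold lower level with siRNA-2 (adjusted p = 0.0181), and the siRNA-1 value lay inside the control range. Another NOLC1 probe set in the brightest class gave -1.16 and -0.67, so the size of its siRNA-1 value depends on the probe set. NCL, nucleolin, gave -0.24 with siRNA-2 and 0.05 with siRNA-1, against controls within 0.01 of 0 (adjusted p = 0.0981 with siRNA-2). NPM1, nucleophosmin, read 0.06 and 0.19 against controls of -0.02 and 0.02, above both controls on both knockdown arrays. Its other probe sets, in the same brightness class, gave -0.41 and -0.52 with siRNA-2 and -0.07 and -0.26 with siRNA-1, so its direction depends on the probe set.

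Of RNA polymerase I and its factors, 0 of 5 passed the test with siRNA-2, a count that shows little where 10.3% of all genes fell, and their median was 0.00 with siRNA-2 and -0.10 with siRNA-1. RRN3, the initiation factor that recruits the polymerase, was the member highest with siRNA-2: 0.37 with siRNA-2 and -0.10 with siRNA-1, against -0.04 and 0.04 on the controls (adjusted p = 0.0611 with siRNA-2). UBTF, which binds the rRNA gene promoter, read 0.14 and -0.03 against controls of -0.10 and 0.10. That probe set was its brightest, and the other 4 read from -0.43 to -0.16 with siRNA-2. POLR1A, the largest subunit, gave 0.00 with siRNA-2 and -0.23 with siRNA-1, against -0.05 and 0.05. Its other probe sets, in the same brightness class, gave -0.13 and -0.085 with siRNA-2 and 0.02 and -0.34 with siRNA-1. The group's siRNA-2 median of 0.00 is the POLR1A value, so it depends on that probe set. POLR1B, the second largest, read -0.33 and -0.05 against controls within 0.01 of 0. POLR1C, a subunit shared with RNA polymerase III, read -0.38 and -0.30, against -0.06 and 0.06. POLR1B and POLR1C lay below both controls on both knockdown arrays. For POLR1B this depends on the probe set: its other 3 gave 0.04, -0.03 and -0.37 with siRNA-2 and 0.25, 0.22 and 0.01 with siRNA-1, and its knockdown difference of -0.19 turns to 0.14 with probe sets chosen by suffix and identifier only.

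Factors of the small subunit, most of them parts of the processome that folds and cuts the early precursor, had a median of -0.45 with siRNA-2 and -0.20 with siRNA-1. Of 11 measured, 6 fell with siRNA-2 (10.3% of all genes, 16.7% of the brightest class), 0 rose, and 8 lay below both controls on both knockdown arrays (25.4% and 31.2%). TSR1, which acts late in small subunit maturation, gave -1.08 with siRNA-2 and -0.71 with siRNA-1, against 0.06 and -0.06 on the controls. It had the smallest p of all members in the comparison of both knockdown arrays with both controls (-0.90 ± 0.16, SE, n = 2 arrays per group, adjusted p = 0.201) and fell with siRNA-2 (adjusted p = 0.0199). Of its other 3 probe sets, those in the middle class read -0.94 and -0.47 with siRNA-2 and -0.62 and -0.06 with siRNA-1, while one in the brightest class, of the _x_at kind that can bind related transcripts, read 0.19 and 0.05. With probe sets chosen by suffix and identifier only, the knockdown difference of TSR1 was -0.27.

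UTP15, a subunit of the processome's earliest module, read -1.08 and -0.48 against controls of -0.12 and 0.12, and its second probe set -0.70 and -0.59. Of the same module, UTP4 read -0.60 and -0.21 against 0.01 and -0.01, and WDR43 -0.76 and 0.01 against 0.03 and -0.03. WDR75 gave -0.14 and 0.00 against controls within 0.01 of 0. UTP15, UTP4 and WDR43 fell with siRNA-2 (adjusted p = 0.0297, 0.0263 and 0.0229), whereas WDR75 did not pass (adjusted p = 0.224). WDR43 lay inside the control range with siRNA-1.

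BYSL, needed for small subunit maturation, was nearly the same with both siRNAs, at -0.45 and -0.40 against controls of -0.02 and 0.02. It fell with siRNA-2 (adjusted p = 0.0388). RRP9, a protein of the U3 snoRNP, also fell with siRNA-2, at -0.48 and -0.31 against controls within 0.01 of 0 (adjusted p = 0.0332). The remaining 4 did not pass: NOC4L (-0.36 with siRNA-2), NOP14 (-0.31), RRP12 (-0.19) and UTP20 (0.04). RRP12 was read by 5 probe sets, of which the other 2 in the brightest class gave -0.40 and -0.58 with siRNA-2. Its dimmer ones gave 0.05 and 0.14, so its direction depends on the probe set. UTP20 holds the E-box shown above and lay within the range of the controls on both knockdown arrays.

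The PeBoW complex, which processes the large subunit rRNA, was represented by PES1 and WDR12. PES1 gave -0.59 with siRNA-2 and -0.37 with siRNA-1, against -0.03 and 0.03 on the controls, and WDR12 -0.50 and 0.01 against 0.01 and -0.01. Both fell with siRNA-2 (adjusted p = 0.0297 and 0.0319), and WDR12 was slightly above the controls with siRNA-1. Its further probe sets gave -0.30 and -1.07 with siRNA-2, and 0.12 and 0.16 with siRNA-1.

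All 7 further large subunit factors measured lay below both controls on the siRNA-2 array (44.6% of all genes, 46.6% of the brightest class). Their median was -0.66 with siRNA-2 and -0.21 with siRNA-1. On both knockdown arrays 6 of them lay below both controls (25.4% of all genes, 31.2% of the brightest class). NOP16 read -0.84 and -0.16 against 0.01 and -0.01 (adjusted p = 0.0193 with siRNA-2). Its second probe set in the brightest class gave -0.90 with siRNA-2, and dimmer ones 0.11 and -0.07. NIP7 read -0.70 and -0.17 against 0.02 and -0.02, and NOC3L, which carries the E-box shown above, -0.69 and -0.21 against 0.01 and -0.01. NOP2, an rRNA methyltransferase, read -0.66 and -0.27 against 0.06 and -0.06.

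WDR74 gave -0.55 with siRNA-2 and -0.28 with siRNA-1, and NOC2L -0.51 and -0.26, both against controls within 0.01 of 0. RRS1, which helps to bring the small rRNA of the large subunit into place, read -0.44 and 0.06 against controls within 0.01 of 0. It was the exception in this group, since with siRNA-1 it lay above both controls. LYAR and DDX21, nucleolar proteins tied to cell growth and rRNA processing, both fell with siRNA-2. LYAR gave -0.87 with siRNA-2 and -0.34 with siRNA-1, against 0.01 and -0.01 (adjusted p = 0.0189). DDX21, an RNA helicase, read -0.43 and -0.17 against 0.02 and -0.02 (adjusted p = 0.041).

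**Figure D3:**
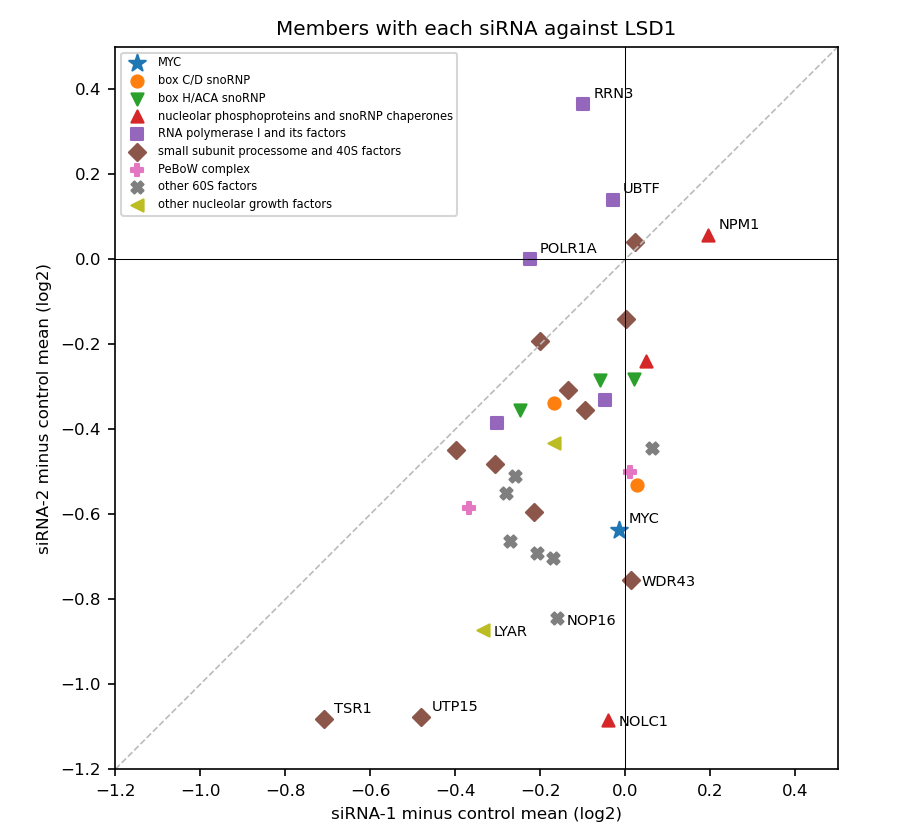
Each measured member by its log2 difference from the control mean with siRNA-1 (horizontal) and siRNA-2 (vertical), with marker shape and colour for its role and a dashed line of equal values. Below the line lie 31 of 36 members; TSR1 and UTP15 are low with both siRNAs, NOLC1, WDR43 and MYC lie near 0 with siRNA-1, and RRN3 and UBTF lie above 0 with siRNA-2.

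The difference between the siRNAs was tested for each member with the same spread. It passed for 3 of 36 members, all lower with siRNA-2 (2.86% of all genes and 4.78% of the brightest class passed in that direction), namely NOLC1, WDR43 and NOP16. The difference was -1.04 ± 0.09 for NOLC1, -0.77 ± 0.08 for WDR43 and -0.68 ± 0.08 for NOP16, with adjusted p = 0.0436, 0.0485 and 0.0489. In the opposite direction the highest were RRN3 (0.46), POLR1A (0.23) and UBTF (0.17), and 0 passed, against 4.01% of all genes. The count of 3 was unstable: it was 0 when probe sets were chosen by suffix and identifier only and 10 without dim genes.

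**Figure D4:**
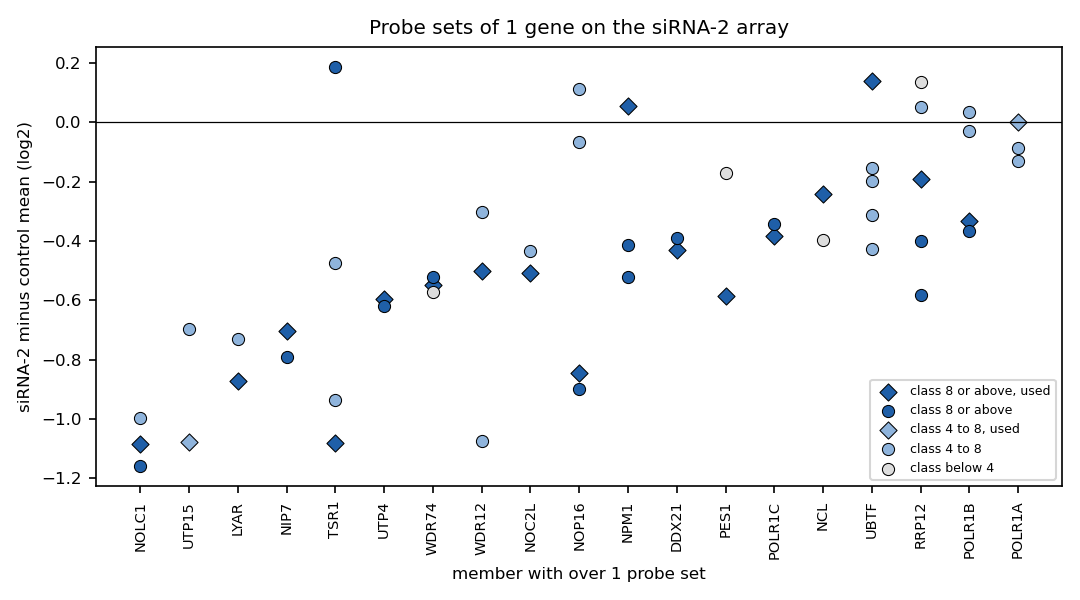
Value on the siRNA-2 array, as log2 difference from the control mean, for every probe set of the 19 members with over 1 probe set; diamonds mark the probe set used, circles the others, and darker blue a brighter class. Of the 36 other probe sets 31 lie below 0, and 12 of the 13 in the brightest class do; NPM1 and TSR1 have probe sets of that class on both sides of 0.

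Among all 72 member probe sets, 62 were lower than the control mean with siRNA-2, against 54.4% of the 41097 probe sets of 1 gene. With siRNA-1, 51 of 72 were lower, against 51.7%. Members with and without an E-box in the promoter had overlapping values. The siRNA-2 median was -0.46 over 14 measured members with the motif (range -0.87 to 0.04) and -0.36 over 17 without (range -1.08 to 0.37). MYC, NOP58, NOLC1, RRP12 and RRS1 were measured but had no promoter given, so they are in neither group. NOLC1 had the lowest siRNA-2 value of all members. Whether the motif plays a part in these values was not tested.

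Other genes of the pathway are given by list, and each count of genes that fell or rose with siRNA-2 stands against 10.3% of all genes lower (16.7% of the brightest class) and 13.5% higher. Of 39 further small subunit factors measured, 17 fell with siRNA-2 and 0 rose, with medians of -0.37 for siRNA-2 and -0.13 for siRNA-1. UTP11 (-0.63 with siRNA-2, -0.53 with siRNA-1), RRP7A (-0.86, -0.61) and IMP4 (-0.66, -0.45) had the smallest p. Of 41 further large subunit factors, 15 fell and 0 rose (medians -0.30 and -0.23), led by RPF2 (-0.65, -0.52), DDX10 (-0.92, -0.57) and RBM28 (-0.76, -0.50). In both lists no gene passed the comparison of both knockdown arrays with both controls, and 27 of 39 and 29 of 41 genes lay below both controls on both knockdown arrays, against 25.4% of all genes.

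Further RNA polymerase I genes had medians of -0.17 with siRNA-2 and -0.13 with siRNA-1, and 4 of 10 fell with siRNA-2. TAF1A, a subunit of the promoter selectivity factor, read -1.65 and -0.37, and the polymerase subunit genes POLR1F and POLR1G -0.37 and -0.16, and -0.74 and -0.19. For RNA polymerase III, 6 of 20 genes fell and 2 rose with siRNA-2 (medians -0.19 and -0.07). Its subunit genes POLR3C and POLR3E gave -0.51 and -0.58, and -0.79 and -0.43. POLR3G, the variant subunit found in stem and tumour cells, gave -3.18 with siRNA-2 and -1.14 with siRNA-1, against 0.02 and -0.02 on the controls. Genes of the RNA exosome, which trims rRNA ends, and of rRNA nucleases, taken as one list, had medians of -0.17 and -0.17. On both knockdown arrays 10 of these 15 genes lay below both controls and 0 above both, against 25.4% and 23.7% of all genes. EXOSC3 read -0.84 and -0.46, EXOSC6 -0.48 and -0.31, and EXOSC4 -0.72 and -0.32.

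Among products of the pathway and partners of MYC, values went both ways. Cytosolic ribosomal proteins had medians of -0.04 with siRNA-2 and 0.02 with siRNA-1; 1 of 51 fell and 2 rose with siRNA-2. RPL38 read 0.95 and 0.86, RPLP2 0.48 and 0.68, and RPL27A 0.49 and 0.71. A list of MYC targets, drawn up as genes outside the nucleolus, had medians of -0.32 and -0.13. Where their proteins act was not tested. On both knockdown arrays 15 of these 23 genes lay below both controls and 4 above both, against 25.4% and 23.7% of all genes. PA2G4 (-0.86, -0.45) and PHB1 (-0.57, -0.36) were low, and the cyclin gene CCND2 was high at 1.76 with siRNA-2 and 2.35 with siRNA-1. Of 10 genes of the MYC network, MAX, the obligate partner, gave -0.33 with siRNA-2 and -0.37 with siRNA-1. MLX gave -0.71 and -0.25, the antagonist gene MXD1 -0.48 and -0.39, MYCL -0.23 and -0.25, and MGA 0.02 and -0.22. Higher values with both siRNAs came from the antagonists MXD3 (0.26, 0.40) and MXI1 (0.11, 0.30) and from MLXIP (0.05, 0.03), which lay within its controls. MNT (0.19, -0.19) and MYCN (-0.07, 0.23) had opposite signs with the 2 siRNAs. Proliferation genes had medians of -0.06 and -0.04, with 4 of 14 lower and 3 higher with siRNA-2, CDK1 reading 0.43 and 0.42, AURKA -0.56 and -0.39, and MCM4 -0.78 and -0.38.

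**Figure D5:**
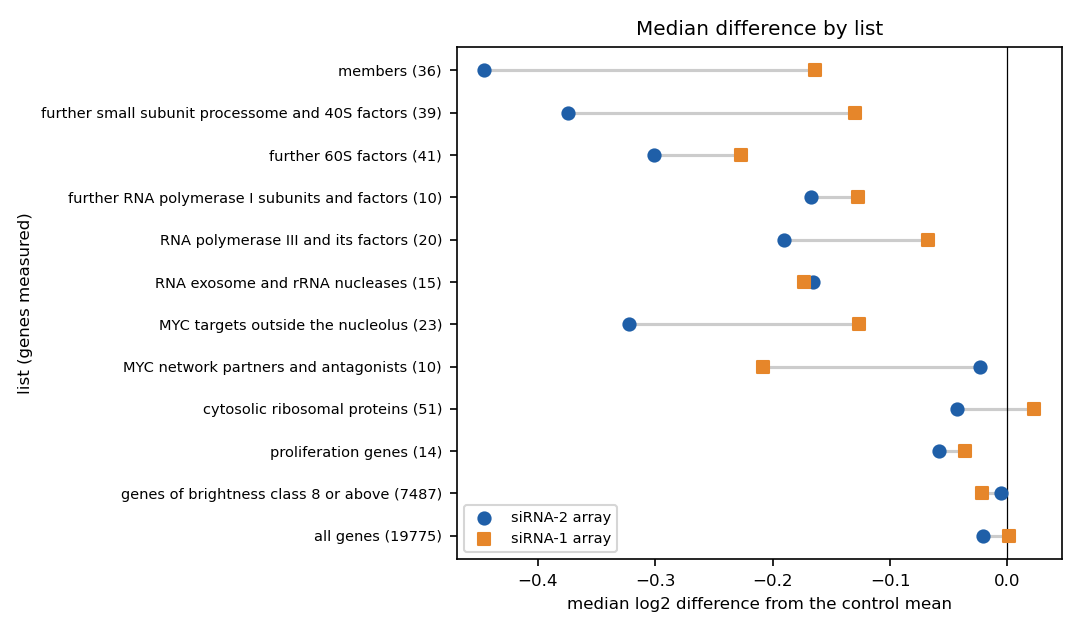
Median log2 difference from the control mean with siRNA-2 (blue circles) and siRNA-1 (orange squares) for the members and for related lists, with the number of genes measured in brackets; the brightest class and all genes are at the bottom. The members lie lowest with siRNA-2 at -0.45, followed by further small subunit factors at -0.37, and cytosolic ribosomal proteins lie near 0.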

How the data were processed

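The deposited log2 values are RMA values, per the submitters' processing notes; which RMA version was run, and on which arrays together, is not given in the sources used here. RMA yields base 2, which is assumed. The authors centred each of 54675 probe sets on its median over the 4 arrays (largest remaining median 5.0e-07), so levels are gone; no further normalization was applied. Arrays give no counts, and their number limits the precision. Single-precision values have a coarser numeric step above 8 and above 4, which survives centring and gave the 3 brightness classes; by chance a dimmer probe set can enter a brighter class. Symbols came from the platform annotation, updated by gene identifier (19734 of 19775 genes matched). Each gene was read by its probe set in the brightest class, then by suffix, then by identifier. limma 3.58.1 in R 4.3.3 gave two-sided tests, adjusted over all genes by Benjamini-Hochberg at 0.05, for 2 arrays against 2 and for 3 groups with the spread of the controls alone (prior SD 0.134 and 0.066). With 2 arrays a side, exact permutation has no access to that threshold. As a check of the code, the fits were run on simulated data with equal shifts on both knockdown arrays. The arrays here differed between the siRNAs, so that run does not bear on the results. Values were given in full for MYC, the members of each role group with the smallest p, and those with the largest difference between siRNAs; most other members are also given by array. Other lists name their 3 genes of smallest p, or all of the MYC network; all markers of other cell types were added after their values were seen. Members and lists were chosen with earlier results of these data known. Alternatives covered the probe set rule, dim genes, array centring, robust moderation, a replicate block and leaving out each array. The replicate numbers share only a name: over genes, the differences between arrays 1 and 2 of the knockdown and control groups correlated at 0.034.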

Additional observations from a re-analysis of the deposited data

Results flagged for a closer look

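For 3 members the effect of siRNA-2 passed a direct comparison with siRNA-1: NOLC1 (-1.04), WDR43 (-0.77) and NOP16 (-0.68), each given as siRNA-2 minus siRNA-1 on the log2 scale. Each rests on 1 array per siRNA and on the spread of 2 control arrays. For NOLC1 a second probe set in the brightest class gave -1.16 with siRNA-2 and -0.67 with siRNA-1, which makes the gap smaller there. For NOP16 the second bright probe set gave -0.90 and -0.27, and WDR43 has a single probe set.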

How the results depend on the processing

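Limits are 1 array per siRNA, a spread taken from 2 controls, and no levels. Members below both controls on both knockdown arrays numbered 23 and, with all 4 arrays kept, ran from 22 of 36 with suffix and identifier only, or 18 of 28 without _x_at and _s_at probe sets, to 26 of 36 with the mean of probe sets. Members that fell with siRNA-2 numbered 20 and ran from 17 of 36 with suffix and identifier only, or 15 of 28 without _x_at and _s_at, to 27 of 36 without dim genes.

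The knockdown comparison called 1 gene, and 0 with the mean of probe sets, suffix and identifier only, no dim genes, robust moderation or the replicate block; leaving out 1 array gave 0 to 4722 genes and 0 to 20 members, the upper ends without the siRNA-1 array. The replicate block left the members' median at -0.30 and changed no other call; without 1 array that median ran from -0.45 to -0.16.

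With siRNA-1, genes called lower and higher were 34 and 78 with probe sets averaged per gene, 70 and 125 without dim genes, and 219 and 367 with arrays centred on their medians, against 0 and 0. With siRNA-2, 1317 genes fell without _x_at and _s_at probe sets, against 2045, and 1 member (0 before) rose under probe set means, without dim genes or with centring. Between the siRNAs, genes lower and higher with siRNA-2 were 877 and 1231 with the mean of probe sets, 0 and 0 with suffix and identifier only, 107 and 86 without _x_at and _s_at, 1339 and 1907 without dim genes, and 1165 and 1890 with centring, against 565 and 793. Members lower in that test were 9, 0, 0, 10 and 10 in the same order and 1 with robust moderation, against 3, and 1 was higher without dim genes.

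The members' median with siRNA-2 and siRNA-1 was -0.42 and -0.14 with the mean of probe sets, -0.44 and -0.14 (-0.135) with suffix and identifier only, -0.43 and -0.17 with centring, and without 1 control ran from -0.46 to -0.45 and from -0.17 to -0.15.

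Signs of the knockdown difference turned in 14 of 36 members. NPM1 was -0.17 and UBTF -0.18 with probe sets averaged; POLR1B was 0.14 and UBTF -0.22 with suffix and identifier only, as well as without _x_at and _s_at, and RRP12 0.0331 with the first of these. Leaving out 1 array at a time, the values ran from -0.53 to 0.0282 for NOP58, -0.24 to 0.0485 for NCL, -0.23 to 0.0001 for POLR1A, -0.10 to 0.37 for RRN3, -0.0452 to 0.16 for UBTF, -0.76 to 0.0145 for WDR43, -0.50 to 0.0116 for WDR12, -0.28 to 0.0203 for NHP2, -0.14 to 0.0024 for WDR75, -0.44 to 0.063 for RRS1 and -0.01 to 0.074 for UTP20. POLR1A turned without the siRNA-1 array, UBTF and UTP20 without control 1, and all of them but POLR1A and UTP20 without the siRNA-2 array, UBTF at -0.03. The cause was not tested. Setting members beside the brightest class, chosen after seeing the data, gave 16.7% in place of 10.3% for genes that fell with siRNA-2 and 10.4% in place of 6.58% past 1.5-fold.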
